A study of Homo sapiens with 10 samples.

Results

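The genes described here encode the subunits of the proteasome, its activators and its assembly factors. They were chosen by symbol: protein-coding genes named PSMA, PSMB, PSMC, PSMD, PSME, PSMF or PSMG followed by a digit, plus POMP, PAAF1 and ADRM1. The rule found 52 genes among the 55889 gene IDs of the deposited files, of which 19116 are protein-coding. They comprise 8 alpha subunits and 6 constitutive beta subunits of the 20S core, 4 immuno- and thymoproteasome beta subunits, 6 ATPases and 12 other subunits of the 19S cap, 5 activators or inhibitors, and 9 assembly factors. The remaining 2, PSMC3IP and PSME3IP1, meet the symbol rule but are named for binding a proteasome protein. The beta subunit PSMB3 was not matched and is not analysed here, so the constitutive 20S core is described by 13 subunits.

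The libraries came from KOPT-K1, a human line of T-cell acute lymphoblastic leukaemia (T-ALL). Cells were exposed for 45 minutes to 25 nM silvestrol, a plant compound that inhibits the helicase eIF4A, or to the vehicle DMSO, in medium with fetal serum. Ribosome-protected fragments (footprints) gave 2 libraries in silvestrol and 2 in DMSO, and total RNA gave 3 libraries in silvestrol and 3 in DMSO. The labels leave out whether the replicates were grown as separate cultures. Each p-value therefore reflects only how far these libraries differ among themselves, and that spread could be technical.

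The 26S proteasome joins a barrel-shaped 20S core, in which rings of alpha subunits gate a chamber lined by catalytic beta subunits, to a 19S cap that binds ubiquitin chains, unfolds the substrate with a ring of ATPases and removes the ubiquitin. Lymphoid cells also make immunoproteasomes, in which PSMB8, PSMB9 and PSMB10 take the places of the catalytic subunits PSMB5, PSMB6 and PSMB7 and which shape the peptides shown on MHC class I. Dedicated chaperones build the core and the cap, and proteasome inhibitors are used against blood cancers.

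All values are RPKM, the reads of a gene scaled to its length and to the total reads of the library. An RPKM is a share of its library, so a loss of translation common to all mRNAs would not be seen. In bulk cells, fewer cells of a type and less RNA per cell cannot be told apart either. The estimated depth was 1.66 to 2.38 M reads per footprint library and 126.5 to 216.4 M reads per RNA library. Footprints varied more between replicates, with a median SD of 0.193 in silvestrol and 0.175 in DMSO on the log2 scale over genes, against 0.0471 in silvestrol and 0.0391 in DMSO for RNA. Of 12 marker genes of T cells and T-ALL, 11 reached an RNA level of 1 RPKM, and RAG1 was just under it at 0.985 RPKM. Their summed RNA level was 1460 to 1511 RPKM in silvestrol and 1472 to 1524 RPKM in DMSO. Among 13 matched markers of other cells, only the B-cell receptor genes CD79A and CD79B passed 1 RPKM. That list summed to 37.8 to 39.7 RPKM in silvestrol and 39.7 to 41.6 RPKM in DMSO, and MS4A1, PAX5, HBA1 and KRT18 were listed at 0.

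Many proteasome genes have processed pseudogenes, intronless copies of their mRNA elsewhere in the genome, and a footprint is short enough to match a gene and its copy equally well. The lines below set 30 bases of 4 coding regions beside a pseudogene, because these genes had low footprint levels relative to their RNA. Sequences are from GENCODE release 29, 5′ to 3′, and capitals mark the bases that differ within a pair. PSMA2 (coding bases 337 to 366, chromosome 7) is set beside PSMA2P3 on chromosome 2, and PSMC1 (coding bases 646 to 675, chromosome 14) beside PSMC1P1 on chromosome 3. PSME2 (coding bases 344 to 373, chromosome 14) is set beside PSME2P2 on chromosome 13, and PSMD4 (coding bases 551 to 580, chromosome 1) beside PSMD4P1 on chromosome 21.
PSMA2: agagtagcttctgtGatgcaagaatatact
PSMA2P3: agagtagcttctgtAatgcaagaatatact
PSMC1: ataaagcctcctaagggggtcattctctat
PSMC1P1: ataaagcctcctaagggggtcattctctat
PSME2: aagagaaatGcattctggtgattacatgga
PSME2P2: aagagaaatTcattctggtgattacatgga
PSMD4: tcagttctccgattttggctggTgaaggTg
PSMD4P1: tcagttctccgattttggctggGgaaggGg
The PSMC1 pair is identical over these bases, and the other pairs differ at 1 or 2 of 30. Where a gene has several copies, 1 of the closest over these bases is shown. Others differ more, such as PSMA2P1 at 5 and PSMC1P13 at 6 of 30. The authors' handling of multi-mapping reads is not stated in the labels or file headers.

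Of the 52 genes, 50 passed the filter on low values, a mean of at least 1 RPKM over the RNA libraries and over the footprint libraries. PSMB11, the catalytic subunit of the thymoproteasome of cortical epithelium, was listed at 0 in all 10 libraries. PSMC1, an ATPase of the cap, failed on footprints alone, at 0.627 and 1.03 RPKM in silvestrol and 1.45 and 0.359 RPKM in DMSO. Its RNA was 5.73, 6.35 and 5.88 RPKM in silvestrol and 6.29, 6.21 and 6.31 RPKM in DMSO, well above the filter. Every one of its 28-base coding windows also occurs at another locus.

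The tested genes were abundant. Their median footprint level was 40.7 RPKM in silvestrol and 42.1 RPKM in DMSO, against 7.15 RPKM in silvestrol and 7.47 RPKM in DMSO over all 10297 tested genes. Their median RNA level was 46.3 RPKM in silvestrol and 46.8 RPKM in DMSO, against 10.6 RPKM in silvestrol and 10.5 RPKM in DMSO over all tested genes. By role, the constitutive beta subunits of the core had the highest median footprint level, 148.5 RPKM in silvestrol and 162.8 RPKM in DMSO. The assembly factors had the lowest, 7.31 RPKM in silvestrol and 7.75 RPKM in DMSO.

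**Figure D1:**
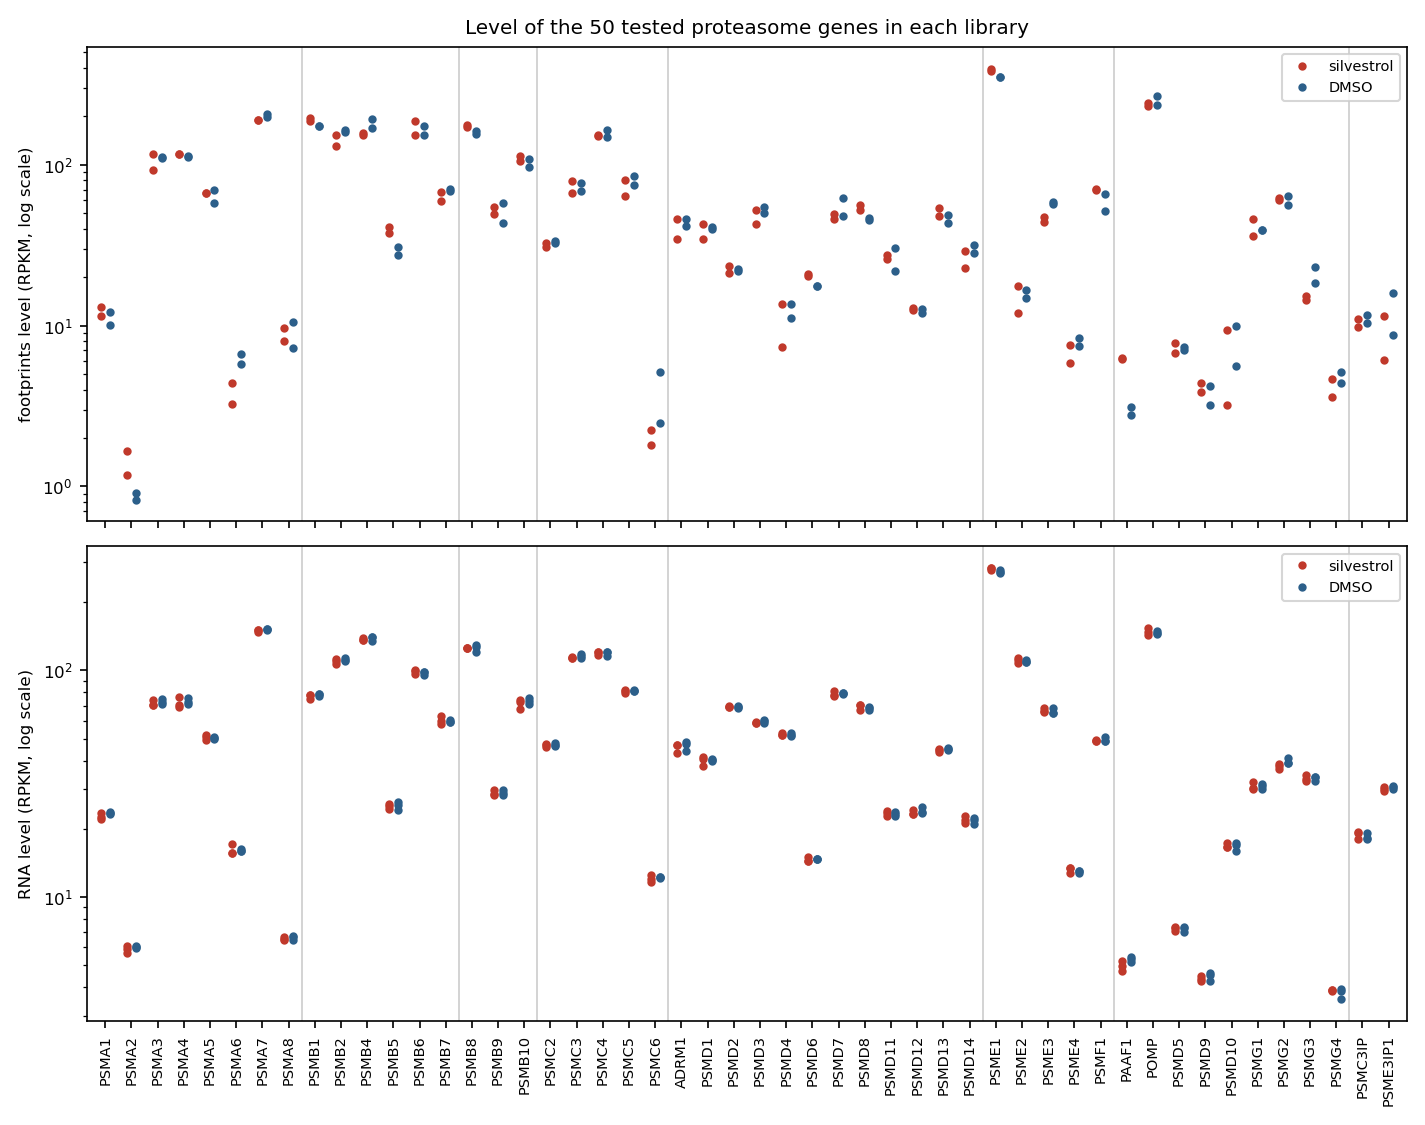
Footprint level (top, RPKM, log scale) and RNA level (bottom, RPKM, log scale) of the 50 tested proteasome genes, each point 1 library, silvestrol left of DMSO within each gene, with vertical lines between roles. PSME1 is the highest in both panels, near 390.5 RPKM in silvestrol and 350.0 RPKM in DMSO for footprints, and RNA points of the 2 treatments overlap for all but 3 genes while footprint points scatter more.

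Among the core subunits, levels within 1 complex differed widely. PSMA7, an alpha subunit, was the highest of the alpha ring with 189 and 189 RPKM of footprints in silvestrol and 207 and 197 RPKM in DMSO. PSMA2, another alpha subunit, had the lowest footprint level of all tested members, 1.18 and 1.66 RPKM in silvestrol and 0.827 and 0.903 RPKM in DMSO. PSMA2 footprints rest on an estimated 14.98 and 17.99 reads in silvestrol and 10.02 and 7.99 reads in DMSO, so its level is poorly resolved.

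The SD of log2 footprint RPKM over the 13 constitutive core subunits was 2.30 in silvestrol and 2.39 in DMSO, and that of log2 RNA RPKM 1.36 in silvestrol and 1.36 in DMSO. PSMA1, PSMA2 and PSMA6 are the core subunits with 5% or more of their coding windows shared with another locus. Over the other 10 subunits the footprint SD was 0.78 in silvestrol and 0.89 in DMSO, and the RNA SD 0.75 in silvestrol and 0.76 in DMSO. In those 10 the highest subunit exceeded the lowest 4.87-fold in silvestrol and 6.97-fold in DMSO by footprints. Dividing by coding length in place of exon length, the footprint SD over these 10 subunits was 1.16 in silvestrol and 1.25 in DMSO.

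The beta subunits carry the proteolytic sites. PSMB5, the constitutive chymotrypsin-like subunit, had footprints of 37.4 and 40.9 RPKM in silvestrol and 30.7 and 27.3 RPKM in DMSO. Its RNA was 25.2, 25.8 and 24.4 RPKM in silvestrol and 26.2, 25.6 and 24.1 RPKM in DMSO. Both silvestrol footprint libraries lay above both DMSO libraries, while the RNA libraries overlapped. The translational efficiency of PSMB5, its footprint level relative to its RNA level, was higher by 0.44 on the log2 scale (SE 0.24), which limma's test did not call (adjusted p = 0.741).

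PSMB8, the immunoproteasome counterpart of PSMB5, had footprints of 172 and 176 RPKM in silvestrol and 161 and 155 RPKM in DMSO. Its RNA was 125, 126 and 125 RPKM in silvestrol and 129, 127 and 121 RPKM in DMSO. The PSMB8 footprint libraries of the 2 treatments did not overlap and the RNA libraries did. The log2 difference in PSMB8 translational efficiency was 0.14 (SE 0.18, limma adjusted p = 0.921).

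The other catalytic pairs overlapped between treatments in most measures. PSMB6, the caspase-like subunit, had footprints of 154 and 186 RPKM in silvestrol and 175 and 153 RPKM in DMSO, and PSMB9, which replaces it, had 49.2 and 54.2 RPKM in silvestrol and 57.5 and 43.1 RPKM in DMSO. PSMB7, the trypsin-like subunit, had footprints of 67.2 and 59.8 RPKM in silvestrol and 68.7 and 70.5 RPKM in DMSO. PSMB10, which replaces PSMB7, had 106 and 114 RPKM in silvestrol and 108 and 97.1 RPKM in DMSO. The 2 PSMB7 libraries in silvestrol lay under both in DMSO, whereas the PSMB6, PSMB9 and PSMB10 footprint libraries overlapped. RNA of these 4 genes overlapped between treatments: 96 to 100 RPKM in silvestrol and 95.6 to 98.5 RPKM in DMSO for PSMB6, and 28.1 to 29.6 RPKM in silvestrol and 28.3 to 29.8 RPKM in DMSO for PSMB9. PSMB7 RNA was 58.3 to 62.7 RPKM in silvestrol and 59.2 to 60.3 RPKM in DMSO, and PSMB10 RNA 67.8 to 74.3 RPKM in silvestrol and 71.4 to 75.7 RPKM in DMSO.

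The immunoproteasome subunits were not uniformly above or below their constitutive counterparts. PSMB8 exceeded PSMB5 in footprints by a ratio of 4.45 ± 0.21 in silvestrol and 5.46 ± 0.31 in DMSO (SD, n = 2 each), and in RNA by 4.99 ± 0.12 in silvestrol and 4.97 ± 0.049 in DMSO (SD, n = 3 each). The footprint ratios of PSMB8 to PSMB5 did not overlap between treatments, 4.30 and 4.60 in silvestrol against 5.24 and 5.68 in DMSO. Those of PSMB10 to PSMB7 did not overlap either, and lay the other way. They were 1.577 and 1.906 in silvestrol against 1.377 and 1.572 in DMSO. The footprint ratios of PSMB9 to PSMB6 overlapped, and no test was run on any of these ratios. PSMB9 stood below PSMB6, at a footprint ratio of 0.305 ± 0.020 in silvestrol and 0.305 ± 0.033 in DMSO (SD, n = 2 each). PSMB10 stood above PSMB7, at a footprint ratio of 1.74 ± 0.23 in silvestrol and 1.48 ± 0.14 in DMSO (SD, n = 2 each) and an RNA ratio of 1.19 ± 0.099 in silvestrol and 1.23 ± 0.037 in DMSO (SD, n = 3 each). The RNA ratio of PSMB9 to PSMB6 was 0.292 ± 0.014 in silvestrol and 0.2975 ± 0.0060 in DMSO (SD, n = 3 each). In RPKM, PSMB8 and PSMB10 thus stood above the subunits they replace in both assays, and PSMB9 below. The size of these ratios depends on the gene lengths used. Exons span 3072 bases in PSMB9 against 1448 in PSMB6, and 2997 in PSMB8 against 1765 in PSMB5. Coding regions were closer, at 657 against 717 bases and 828 against 789. Ratios per coding base were not computed.

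In the 20S alpha ring, PSMA6 and PSMA2 had the largest differences and in opposite directions. PSMA6 had footprints of 3.25 and 4.40 RPKM in silvestrol and 6.68 and 5.76 RPKM in DMSO, with RNA of 15.6, 17.2 and 15.6 RPKM in silvestrol and 16.3, 16.0 and 16.0 RPKM in DMSO. Its footprint libraries did not overlap and its RNA libraries did. The log2 difference in PSMA6 translational efficiency was -0.65 (SE 0.29, limma adjusted p = 0.668). PSMA2 was on the other side at 0.52 (SE 0.29, limma adjusted p = 0.747), and at 0.34 without silvestrol footprint library 2. PSMA2 averaged 1.42 RPKM of footprints in silvestrol and 0.865 RPKM in DMSO, so it passed the filter of 1 RPKM only through the treatment in which it was higher, and its difference is a description and not support for a change. PSMA6 footprints rest on an estimated 50.3 and 58.2 reads in silvestrol and 98.6 and 62.2 reads in DMSO. Among coding windows, 56.3% of those of PSMA6 and 13.8% of those of PSMA2 are shared with another locus. PSMA8, the testis-type alpha subunit, had footprints of 8 to 9.60 RPKM in silvestrol and 7.22 to 10.5 RPKM in DMSO.

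Among the ATPases of the 19S cap, PSMC6 stood apart from the rest. It had footprints of 1.80 and 2.23 RPKM in silvestrol and 2.48 and 5.15 RPKM in DMSO, while its RNA was 12, 12.5 and 11.7 RPKM in silvestrol and 12.3, 12.1 and 12.3 RPKM in DMSO. Both silvestrol footprint libraries lay under both DMSO libraries, with the lower DMSO library close to them and the other well above, and the RNA overlapped. Its log2 difference in translational efficiency was -0.69 (SE 0.31, limma adjusted p = 0.669). It was -1.15 without DMSO footprint library 1 and -0.23 without DMSO footprint library 2. The other 4 tested ATPases, PSMC2, PSMC3, PSMC4 and PSMC5, had log2 differences of -0.14 to 0.02.

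The 12 non-ATPase subunits of the cap had log2 differences in translational efficiency of -0.29 to 0.24. ADRM1, a ubiquitin receptor, had footprints of 34.6 and 46.1 RPKM in silvestrol and 46.1 and 41.6 RPKM in DMSO, with RNA of 43.3 to 46.8 RPKM in silvestrol and 44.2 to 48.1 RPKM in DMSO. PSMD14, the deubiquitinase of the cap, had footprints of 22.8 and 28.9 RPKM in silvestrol and 31.6 and 28.4 RPKM in DMSO, with RNA of 21.3 to 22.7 RPKM in silvestrol and 21.0 to 22.4 RPKM in DMSO. Both genes overlapped between treatments in both assays. PSMD6, a subunit of the lid of the cap, had footprints of 20.9 and 20.4 RPKM in silvestrol and 17.5 and 17.6 RPKM in DMSO, without overlap, and RNA of 14.4 to 15 RPKM in silvestrol and 14.7 to 14.8 RPKM in DMSO. Its translational efficiency differed by 0.24 on the log2 scale (SE 0.19, limma adjusted p = 0.852).

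Of the activators and the inhibitor, PSME1, a subunit of the 11S activator, had the highest RPKM of any member in both assays. PSME1 footprints were 385 and 396 RPKM in silvestrol and 350 and 350 RPKM in DMSO, and its RNA was 278, 283 and 282 RPKM in silvestrol and 276, 272 and 270 RPKM in DMSO. In both assays every silvestrol library lay above every DMSO library, and PSME1 was the 1 tested member whose RNA did so. PSME1 RNA was higher by 0.04 on the log2 scale (SE 0.02, limma adjusted p = 0.657). PSME2, its partner in that activator, had an RNA level of 108 to 113 RPKM in silvestrol and 109 to 111 RPKM in DMSO but footprints of 11.9 to 17.7 RPKM in silvestrol and 14.8 to 16.6 RPKM in DMSO, with 55.5% of its coding windows shared. PSME3, a subunit of a nuclear activator, had footprints of 44.0 and 47.3 RPKM in silvestrol and 59.0 and 57.3 RPKM in DMSO, and RNA of 66.5, 68.1 and 65.6 RPKM in silvestrol and 68.1, 64.9 and 65.0 RPKM in DMSO. The PSME3 footprint groups did not overlap, and the RNA groups did. Its translational efficiency differed by -0.36 on the log2 scale (SE 0.19, limma adjusted p = 0.717). PSME3 was named after its values were seen. PSMF1, the inhibitor that binds the core, had footprints of 69.3 and 70.4 RPKM in silvestrol and 65.6 and 51.8 RPKM in DMSO, and a log2 difference in translational efficiency of 0.27 (SE 0.18, limma adjusted p = 0.804). The PSMF1 difference was 0.44 without DMSO footprint library 1 and 0.11 without DMSO footprint library 2.

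PAAF1, a chaperone of the 19S ATPases, showed the largest difference of any proteasome gene. PAAF1 footprints were 6.18 and 6.25 RPKM in silvestrol and 3.10 and 2.77 RPKM in DMSO, an estimated 116.7 and 100.8 reads in silvestrol against 55.9 and 36.5 in DMSO. Its RNA was 4.73, 5.20 and 4.98 RPKM in silvestrol and 5.32, 5.46 and 5.16 RPKM in DMSO. The 2 silvestrol footprint libraries lay at about the same level and both far above DMSO, whereas the RNA of the treatments overlapped, with silvestrol on the lower side. The log2 difference was 0.97 in footprints (SE 0.24, limma adjusted p = 0.600), -0.09 in RNA (SE 0.04, limma adjusted p = 0.601) and 1.06 in translational efficiency (SE 0.29, limma adjusted p = 0.335). Among all tested genes, 192 had a larger positive difference in translational efficiency. With 1 spread for both assays in place of weights per assay, the SE of PAAF1 was 0.12 and its limma adjusted p 0.00443. Footprints varied more than RNA between replicates, so a single spread tends to understate the error of this ratio.

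**Figure D2:**
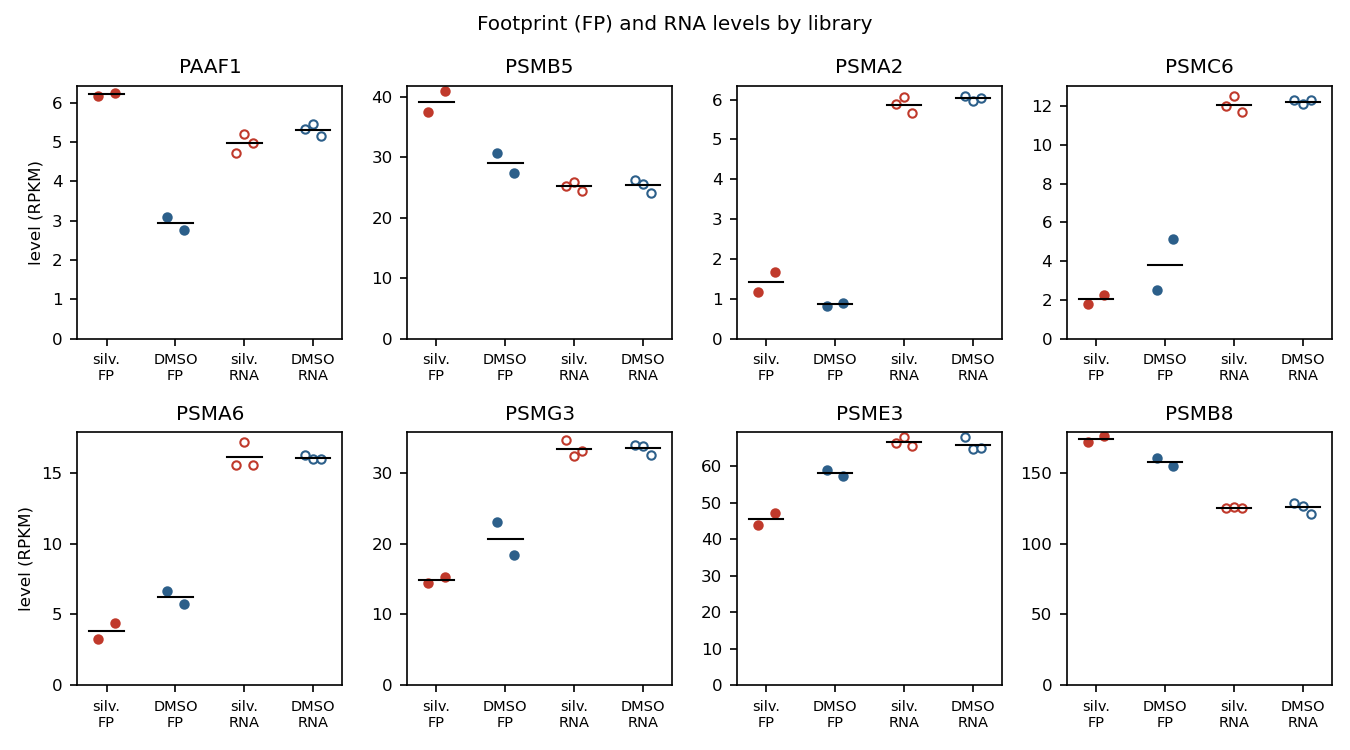
Level (RPKM, axes from 0) of 8 proteasome genes in each library, with filled points for footprints (FP), open points for RNA, silvestrol left of DMSO within each assay, and a bar at the group mean. PAAF1 and PSMB5 footprints lie higher in silvestrol, at means of 6.21 and 39.1 RPKM in silvestrol against 2.94 and 29 RPKM in DMSO, and their RNA points overlap.

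The other assembly factors differed by less. POMP, which matures the core, was the most abundant of them, with footprints of 232 and 241 RPKM in silvestrol and 267 and 234 RPKM in DMSO and RNA of 143 to 154 RPKM in silvestrol and 145 to 149 RPKM in DMSO. PSMG3, one of the PAC chaperones that assemble the alpha ring, had footprints of 14.4 and 15.3 RPKM in silvestrol and 23.0 and 18.4 RPKM in DMSO, without overlap, and RNA of 32.4 to 34.7 RPKM in silvestrol and 32.6 to 34.0 RPKM in DMSO. Its log2 difference in translational efficiency was -0.45 (SE 0.23, limma adjusted p = 0.70), and -0.30 without DMSO footprint library 1. PSMG4, another PAC chaperone, had the lowest RNA level of the tested members, 3.84 to 3.91 RPKM in silvestrol and 3.55 to 3.92 RPKM in DMSO. PSMD10, a chaperone of the ATPase ring also known as gankyrin, had footprints of 9.41 and 3.20 RPKM in silvestrol and 9.87 and 5.63 RPKM in DMSO, which overlapped. Its log2 difference in translational efficiency was -0.40 (SE 0.43), and single libraries set its sign. It was -1.11 without silvestrol footprint library 1 and 0.31 without silvestrol footprint library 2, and -0.02 without DMSO footprint library 1 and -0.78 without DMSO footprint library 2. PSME3IP1, which belongs to the symbol matches, had footprints of 6.10 and 11.5 RPKM in silvestrol and 16.0 and 8.72 RPKM in DMSO, which overlapped, and a log2 difference in translational efficiency of -0.44 (SE 0.31). That difference was -0.01 without silvestrol footprint library 1 and -0.88 without silvestrol footprint library 2, and -0.02 without DMSO footprint library 1 and -0.86 without DMSO footprint library 2.

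Over the whole set, no proteasome gene changed beyond the threshold. In translational efficiency, 0 of 50 tested members were called higher and 0 lower at a limma adjusted p under 0.05, where 0.0194% of all tested genes were called higher and 0.0874% lower. At an unadjusted p under 0.05, 1 member was higher (PAAF1, 2.09% of all tested genes) and 2 were lower (PSMA6 and PSMC6, 5.29% of all tested genes). In footprints, 0 members were called higher (0.0194% of all tested genes) and 0 lower (0.0291%). Unadjusted, PAAF1 and PSMB5 were higher (2.12% of all tested genes) and PSME3, PSMG3 and PSMA6 were lower (4.87%). In RNA, 0 members were called higher (0.272% of all tested genes) and 0 lower (0.00971%), and at an unadjusted p under 0.05 there were again 0 members, against 9.23% of all tested genes. So few genes of any kind were called after adjustment that a count of 0 there says little about the proteasome in particular. The unadjusted RNA count was not tested against its share of all tested genes.

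With 1 spread for both assays, a setting that tends to understate the error of the ratio, translational efficiency gave 3 called members. PAAF1 and PSMB5 were higher (limma adjusted p = 0.00443 and 0.0461), where 1.30% of all tested genes were called higher, and PSME3 was lower (limma adjusted p = 0.0252), where 3.99% were called lower. Footprint libraries of the 2 treatments did not overlap for 10 members that were higher in silvestrol, with 13.1% of all tested genes doing so, and for 8 that were lower, with 25.2% of all tested genes doing so. RNA libraries did not overlap for PSME1 on the higher side (8.97% of all tested genes) and for PSMA7 and PSMG2 on the lower side (3.99% of all tested genes).

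The median log2 difference over the 50 members was -0.02 in translational efficiency, against -0.08 over all tested genes. In footprints it was -0.02 against -0.07, and in RNA -0.01 against 0.00. The members' median in translational efficiency turned to 0.05 with median scaling of the libraries and to 0.07 with TMM factors, so no direction is given for the set. Leaving aside the 2 symbol matches at -0.28, medians in translational efficiency by role ran from -0.12 for the 5 activators and inhibitors to 0.14 for the 3 immunoproteasome subunits. RNA differences were small throughout, from -0.09 for PAAF1 to 0.04 for PSME1.

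**Figure D3:**
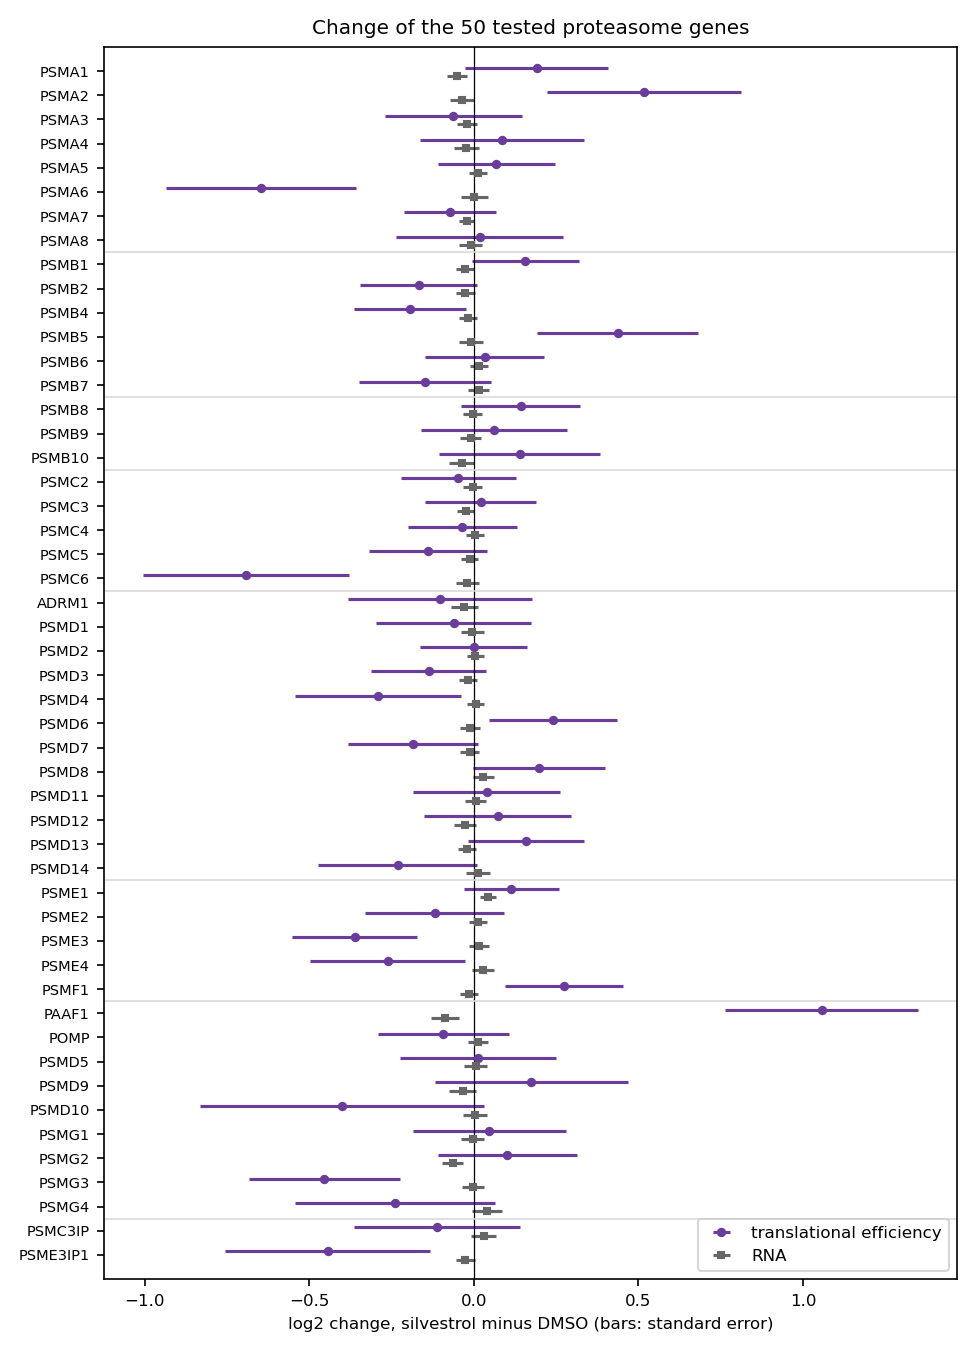
Log2 difference, silvestrol minus DMSO, of each of the 50 tested proteasome genes in translational efficiency (circles) and RNA (squares), with bars for the standard error and lines between roles. RNA lies within -0.09 and 0.04 for every gene, and translational efficiency spans -0.69 for PSMC6 to 1.06 for PAAF1.

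Footprint level relative to RNA level, taken in DMSO, was lower in members with more of their coding windows found at another locus. The 36 tested members with under 5% of their windows shared had a median log2 ratio of footprint to RNA RPKM of 0.34. The 7 with 5% to 25% had -0.67 and the 7 with over 25% had -1.64. Over all tested protein-coding genes the same classes had -0.37 (7261 genes), -0.67 (866 genes) and -1.64 (804 genes). The median of members with little shared sequence lay above that of other such genes. With over 25% shared the medians were alike, with members between -2.80 and -1.12 and genes between -6.44 and 10.64, and no difference was tested. Of the 36 low-share members, 32 lay above the background median of -0.37, and 26 had a ratio above 1, as 29.8% of low-share genes did. Their transcripts also hold more coding sequence, a median of 64.1% against 51.5% in the background, and footprints fall mostly in coding sequence. The part of this in the difference was not tested.

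Across the 50 tested members, the log2 ratio and the shared percentage had a Pearson r of -0.769 and a Spearman rho of -0.717, given as a description over genes that come from the same libraries. Over all 8931 tested protein-coding genes r was -0.478 and rho -0.314. PSMB1, a beta subunit with 0% of its windows shared, had the highest ratio, at a log2 value of 1.15. PSME2 (55.5% of windows shared) and PSMA2 (13.8%) had the lowest of the tested members, both at -2.80. PSMC6 (63.5%), PSMA6 (56.3%), PSMD4 (47.5%), PSMD10 (35.8%) and PSMD2 (28.2%) lay between -2.07 and -1.12. PAAF1, with 1.04% shared, had -0.86, the lowest value of the 36 tested members with under 5% of their windows shared.

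**Figure D4:**
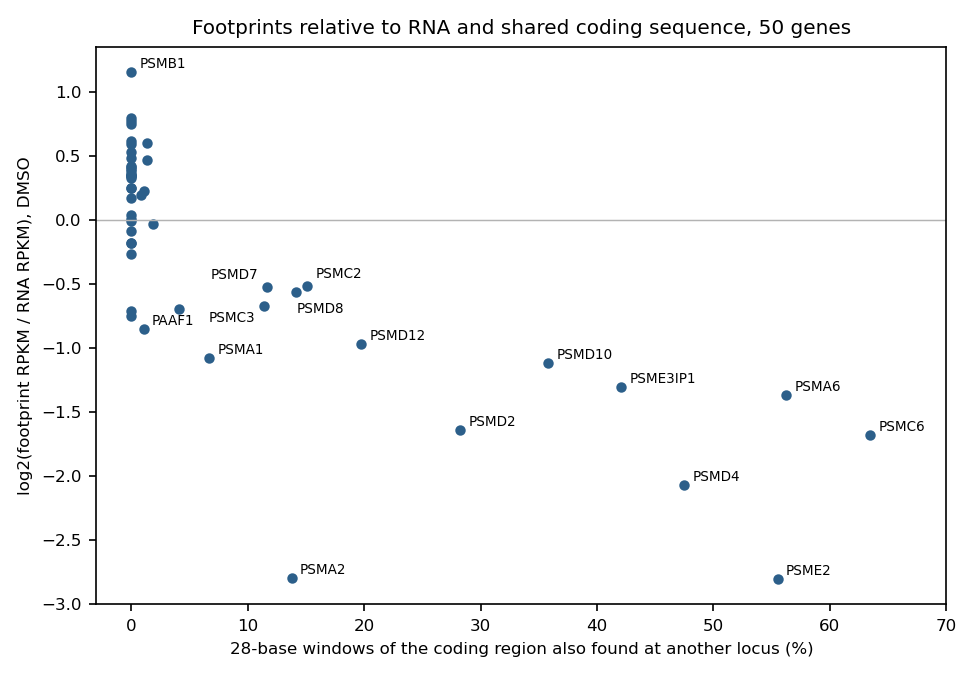
Log2 ratio of footprint to RNA RPKM in DMSO (vertical) against the percentage of 28-base coding windows also found at another locus (horizontal), each point 1 of the 50 tested proteasome genes. Genes near 0% lie mostly above a log2 ratio of 0, PSMB1 highest at 1.15, and PSME2 and PSMA2 lie lowest at -2.80.

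Footprint reads were listed at some of the copies. Of 41 named proteasome pseudogenes of 16 parent genes, 14 had a mean footprint level of at least 1 RPKM and 2 had such a mean RNA level. For 10 of them footprints reached 1 RPKM while RNA stayed under 0.1 RPKM. PSMA2P3, with 94.4% identity to the aligned coding bases of PSMA2, had footprints of 17.4 and 10.9 RPKM in silvestrol and 12.4 and 23.2 RPKM in DMSO and a mean RNA level of 0.0119 RPKM. PSMA2 itself stayed under 2 RPKM of footprints, as given above, although its RNA was 5.67 to 6.07 RPKM in silvestrol and 5.97 to 6.08 RPKM in DMSO. PSMD4P1 had 8.72 and 12.4 RPKM in silvestrol and 10.7 and 8.14 RPKM in DMSO (92.1% identity), beside PSMD4, a ubiquitin receptor of the cap, at 7.37 and 13.6 RPKM in silvestrol and 13.7 and 11.1 RPKM in DMSO. RPKM divides by gene length, and a gene and its copy differ in length here. The exons of PSMA2 span 5336 bases and those of PSMD4 3027 bases. PSMA2P3 was aligned over 675 coding bases and PSMD4P1 over 1106. These RPKM therefore do not compare the number of reads at a gene and its copy, and reads at the copies were not estimated. PSMA1P1 averaged 11.9 RPKM of footprints over the 4 libraries and 0.0133 RPKM of RNA. Not all copies did so: 23 of the 41 were at 0 in all 4 footprint libraries, among them PSMC1P1, which is 99.9% identical to the PSMC1 coding region. The part of multi-mapping reads in these levels was not tested. Between silvestrol and DMSO, translational efficiency had a median log2 difference of 0.01 in the 36 members with the least shared sequence (median SE 0.21). It was 0.07 in the 7 of the middle class (median SE 0.20) and -0.40 in the 7 with the most (median SE 0.29). The last median is the value of PSMD10, whose sign single libraries set. These medians were not computed for all tested genes, and no difference between classes was tested.

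The title of the series names RNA G-quadruplexes, structures that G-rich repeats such as (GGC)4 can form in 5′ untranslated regions (UTRs). Among the chosen transcripts of the 50 tested members, 1 had (GGC)4 or (CGG)4, 2 overlapping ways to read the repeat, in its 5′ UTR on either strand, a share of 2.00%, against 7.38% of 8931 protein-coding genes. Searching either strand also counts C-rich repeats of the RNA. The 2 shares therefore do not compare G-rich repeats alone. The 1 member is PSMG2, a PAC chaperone of the alpha ring on chromosome 18, whose RNA holds the G-rich form. It is shown here because it is the 1 member with the repeat, as bases 297 to 326 of a 682-base 5′ UTR, with the repeat in capitals.
PSMG2: atgaggcccCGGCGGCGGCGGcgccaactg
PSMG2 had footprints of 62.4 and 60.3 RPKM in silvestrol and 63.9 and 55.9 RPKM in DMSO and RNA of 37.9, 38.8 and 36.9 RPKM in silvestrol and 41.1, 38.9 and 38.9 RPKM in DMSO. Footprints overlapped between treatments and RNA did not. Its log2 difference in translational efficiency was 0.10 (SE 0.21, limma adjusted p = 0.956). It was 0.20 without DMSO footprint library 1 and 0.0063 without DMSO footprint library 2. The members also had shorter 5′ UTRs than the background, a median of 134.5 bases against 195 bases, and shorter coding regions, 802.5 bases against 1350 bases.

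Promoter windows from RefSeq (build GRCh38.p14, 250 bases before to 50 after the start) were matched for 44 members. The core of the antioxidant response element, TGACNNNGC on either strand, to which NFE2L1 binds in the known response of proteasome genes to proteasome loss, occurred in 13 of 44, or 29.5%, against 15.6% of 7435 genes. The SP1 box GGGCGG occurred in 68.2% against 71.4%, and CCAAT in 47.7% against 38.0%, both on either strand. A match is a description of these letters and not a site.

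Genes that work with the proteasome were described in the same way. Of 42 tested ubiquitin and proteasome partners, 0 were called in either direction in translational efficiency (0.0194% of all tested genes higher, 0.0874% lower), footprints (0.0194% and 0.0291%) or RNA (0.272% and 0.00971%). At an unadjusted p under 0.05, 0 were past it in translational efficiency, 1 was lower in footprints (4.87% of all tested genes) and 3 were higher in RNA (6.95% of all tested genes). Their median difference in translational efficiency was -0.11 on the log2 scale. The lowest was NFE2L1, the transcription factor of proteasome genes, at -0.44 (SE 0.25, limma adjusted p = 0.746), with an RNA difference of 0.15 (SE 0.03, limma adjusted p = 0.0929). The highest was UBA6, a ubiquitin-activating enzyme, at 0.34 (SE 0.28, limma adjusted p = 0.866). SEM1, a small cap subunit outside the symbol rule, had 0.12 (SE 0.21). Of 17 tested genes of MHC class I antigen processing, 0 were called in any comparison. At an unadjusted p under 0.05, NLRC5 and HLA-E were lower in translational efficiency (5.29% of all tested genes), HLA-E was lower in footprints (4.87%), IRF1 was higher in RNA (6.95%), and TAP1 and HLA-C were lower in RNA (2.27%). The median difference in translational efficiency was 0.00. The lowest was NLRC5, the transactivator of MHC class I and immunoproteasome genes, at -0.86 (SE 0.29, limma adjusted p = 0.483).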

How the data were processed

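Footprints and total RNA of KOPT-K1 cells were measured in 10 libraries. For each library the authors deposited a table of RPKM by Ensembl gene ID, per the file headers. STAR and hg19 appear in the submitters' processing notes. The counting tool, the annotation, the gene lengths, the use of strand and the handling of multi-mapping reads are not stated there. Groups and replicate numbers come from the sample titles.

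Gene names were matched from the versioned IDs, 49395 in all. Values were analysed as log2(RPKM + 0.5), a scale that shrinks differences at low levels. A gene was tested if its mean reached 1 RPKM in RNA and in footprints (10297 genes), with limma 3.58.1 in R 4.3.3 (trend, robust, two-sided, Benjamini-Hochberg, threshold 0.05). The interaction of assay and treatment over all 10 libraries gave translational efficiency, with weights per assay of 0.119 for footprints and 4.12 for RNA. Footprints used 4 libraries and RNA 6. Fits were also run on data simulated with a set spread per assay, which was not estimated from these libraries. Depth was estimated from the steps between low RPKM values and the exon lengths of GENCODE release 29 (GRCh38), which also gave sequences, and is rough. Shared windows are 28-base coding windows found exactly at another annotated locus. The genes named are those called, the 5 largest differences in translational efficiency each way, the catalytic subunits, PSMD14, ADRM1, POMP and PAAF1, and the extremes of level. Other members given with values were chosen after their values were seen. Members, lists and rules were chosen with earlier results of these data known. Pseudocounts, filters, scalings, weights, the replicate block and left-out libraries were varied.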

Additional observations from a re-analysis of the deposited data

How the results depend on the processing

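Weights decided the calls most: with 1 spread for both assays, translational efficiency gave 545 calls and 3 members in place of 11 calls and 0 members. A single spread tends to understate the error of the ratio, because footprints varied more than RNA between replicates. Leaving out 1 library gave 8 to 44 calls in translational efficiency, 0 to 0 in footprints (5 with all libraries) and 0 to 35 in RNA (29 with all libraries). Footprint calls were 2 with a pseudocount of 0.1, 2 without a filter, 2 with a minimum mean of 5 RPKM, 8 with TMM factors and 9 in the fit of all 10 libraries. RNA calls were 0 without a filter and 48 in the fit of all 10 libraries. Replicate numbers did not pair the libraries (r of same-numbered deviations -0.03 in footprints and -0.33 to 0.15 in RNA), and the fit with the replicate block gave 1 call in footprints and 57 in RNA. The cause of these changes was not tested.

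The members' median in translational efficiency was 0.0466 with median scaling, 0.0681 with TMM factors and -0.0774 to 0.0596 with 1 library left out. In footprints it was 0.0334 with median scaling, 0.0617 with TMM factors and -0.0899 to 0.0177 with 1 library left out. Of 721 values of named members under an alternative, 17 changed sign, none of them called. The spread over core subunits per coding base was 2.06 in silvestrol and 2.17 in DMSO for footprints and 1.29 in silvestrol and 1.29 in DMSO for RNA. In the deposited RPKM over subunits with under 5% of windows shared, an alternative added after seeing the data, the spread was 0.78 in silvestrol and 0.89 in DMSO for footprints and 0.75 in silvestrol and 0.76 in DMSO for RNA. Footprint depth limits members such as PSMA2, and with 2 footprint libraries a treatment no test here shows that a proteasome gene stayed the same.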
